A study of Rattus norvegicus with 119 samples.

Results

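The skeletal muscle contractile genes followed here were 9 genes of the striated muscle fibre, chosen by name and identifier, among 32662 genes in the count tables. They were the embryonic myosin heavy chain Myh3 (ENSRNOG00000046276), the slow-fibre troponins Tnni1 and Tnnt1, the fast-fibre troponins Tnni2 and Tnnc2 (ENSRNOG00000015155), the fast-fibre myosin light chains Mylpf and Myl1, and Acta1 and Ckm, which both fibre types use. The samples were microdissected tissues of female Wistar rats on postnatal day 0, namely the condensed mesenchyme called the ventral mesenchymal pad (VMP), and SU, the urethra beside it with its smooth muscle, its epithelium and the mesenchyme around it. Each tissue gave 1 Tag-seq library from a tissue pool of many animals and 1 RNA-seq library from collagenase-dissociated cells. It also gave single cells captured on a Fluidigm C1 chip (49 VMP and 66 SU cells). The paper states that epithelia were separated from the dissociated cells, so SU by Tag-seq differed in composition from SU in the other assays. With 1 library per tissue and assay, and with the cells of a tissue coming from 1 pool, no difference within an assay has a replicate check.

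In striated muscle, myosin filaments pull on actin filaments. The troponin complex on the actin filament decides when they may do so, with troponin C binding calcium, troponin I holding the filament off and troponin T anchoring both to tropomyosin. Slow and fast fibres use different genes for most of these parts, and fibres that are still forming use embryonic myosin. Striated fibres also form the external sphincter around the urethra, beside the smooth muscle of its wall.

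Promoter sequences of the rat genome are shown for 4 of the genes that have different parts in the fibre. They run from 250 bases before to 50 bases after the start of the RefSeq transcript (build GRCr8), and all 9 genes had an entry, with Mylpf under the symbol Myl11 and Myl1 with 2 start sites. Capitals mark E-boxes (CANNTG, the letters that myogenic regulators such as Myod1 bind) in Myh3 and Tnnc2, the E-box CAGCTG in Ckm, and the CArG box, which serum response factor binds, in Acta1.
Myh3, chr10:52268935-52269234, plus strand: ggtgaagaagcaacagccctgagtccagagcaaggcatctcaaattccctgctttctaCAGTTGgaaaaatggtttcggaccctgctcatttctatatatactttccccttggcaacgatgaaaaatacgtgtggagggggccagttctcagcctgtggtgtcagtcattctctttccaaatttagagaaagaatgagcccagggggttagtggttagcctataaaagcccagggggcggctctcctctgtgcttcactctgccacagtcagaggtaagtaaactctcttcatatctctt
Tnnc2, chr3:173935290-173935589, minus strand: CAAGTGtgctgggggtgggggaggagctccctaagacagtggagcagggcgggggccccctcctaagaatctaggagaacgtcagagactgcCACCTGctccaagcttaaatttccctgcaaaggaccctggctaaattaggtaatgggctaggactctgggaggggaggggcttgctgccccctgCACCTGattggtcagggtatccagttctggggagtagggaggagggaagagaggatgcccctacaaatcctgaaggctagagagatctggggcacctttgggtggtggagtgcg
Ckm, chr1:88189211-88189510, plus strand: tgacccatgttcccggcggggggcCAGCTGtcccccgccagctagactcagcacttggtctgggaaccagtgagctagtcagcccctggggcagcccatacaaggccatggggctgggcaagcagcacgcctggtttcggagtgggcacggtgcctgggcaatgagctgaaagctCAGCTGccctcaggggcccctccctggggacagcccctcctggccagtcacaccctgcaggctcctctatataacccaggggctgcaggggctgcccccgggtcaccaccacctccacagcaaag
Acta1, chr19:68784145-68784444, minus strand: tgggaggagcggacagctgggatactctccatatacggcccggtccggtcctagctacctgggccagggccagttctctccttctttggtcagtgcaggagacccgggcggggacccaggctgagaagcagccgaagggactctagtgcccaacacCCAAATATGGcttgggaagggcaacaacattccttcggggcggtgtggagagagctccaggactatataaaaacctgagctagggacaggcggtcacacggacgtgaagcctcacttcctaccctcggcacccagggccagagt
An E-box was found on either strand in all 10 start windows of the 9 genes, and in 72.1% of the 33469 windows of this length in the table. The letters CAGCTG, which are also E-boxes, were in the windows of 3 of the 9 genes (Mylpf, Acta1 and Ckm) and in 15.1% of all windows. The CArG box of Acta1 starts 94 bases before the transcript start, and 1.64% of all windows hold one. A MEF2 site was found at 1 of the 2 starts of Myl1 and in 3.29% of all windows. These matches describe the letters and were not tested for binding.

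Counts on genes came to 7870450 in VMP and 8215177 in SU by Tag-seq, to 4397699 and 7007767 by RNA-seq, and to between 199849 and 1488320 in a single cell. The 4 matched endothelial markers summed to 681 CPM (counts scaled to the library total) in VMP and 222 in SU by Tag-seq, the 9 epithelial markers to 528 and 8815, the 5 fibroblast markers to 45585 and 22843, and the 3 smooth muscle markers to 663 and 821. SU therefore carried its labelled epithelium, and VMP by Tag-seq carried some epithelial counts too. In RNA-seq the epithelial sum was 7.05 CPM in VMP and 208 in SU, and in the summed cells it was 0.57 and 7.51. The endothelial, fibroblast and smooth muscle sums turned between assays. The endothelial sum was 859 CPM in VMP and 350 in SU by RNA-seq, but 369 and 525 in the summed cells. Kdr made up 73.2% of that sum in the VMP cells. The fibroblast sum was 21822 CPM in VMP and 49671 in SU by RNA-seq, and 11042 and 28323 in the summed cells. The smooth muscle sum was 150 and 34.1 CPM by RNA-seq, and 217 and 22.6 in the summed cells. Its 3 genes, of 13 listed, were Des, Lmod1 and Synm. Whether these genes set smooth muscle apart from skeletal muscle was not tested. Des alone made up 86.7% of the Tag-seq sum in VMP and 61.2% in SU, so the sum follows mainly 1 gene and does not measure smooth muscle as a whole. In bulk libraries, fewer cells of a type and less RNA per cell cannot be told apart.

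Myh3, the myosin heavy chain of forming fibres, lies on chromosome 10 (53621375 to 53645194, Rnor_6.0). By Tag-seq it had 3245 counts in VMP and 13879 in SU, and by RNA-seq 15 and 140. SU was the higher library in both assays. The log2 ratio of SU over VMP, after TMM scaling (a trimmed mean of log ratios between libraries) and with 0.5 counts added, was 2.15 by Tag-seq (95% counting interval 2.09 to 2.20) and 2.72 by RNA-seq (1.99 to 3.63). These intervals, like all others here, cover counting error only.

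The slow troponins were higher in SU in both assays, but not equally so. Tnni1 (slow troponin I, chromosome 13, 52624878 to 52637297) had 810 and 3314 Tag-seq counts in VMP and SU, and 4 and 43 RNA-seq counts. Its log2 ratio was 2.08 (1.97 to 2.19) by Tag-seq and 2.84 (1.5 to 4.90) by RNA-seq. Tnnt1 (slow troponin T, chromosome 1, 72889270 to 72899659) differed least between the tissues by Tag-seq and strongly by RNA-seq. It had 2493 and 3910 Tag-seq counts, with a log2 ratio of 0.70 (0.63 to 0.77), and 34 and 328 RNA-seq counts, with a log2 ratio of 2.79 (2.29 to 3.36). The 2 assays therefore gave Tnnt1 log2 ratios that lay 2.09 apart, with intervals that did not overlap.

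The fast troponins had the opposite pattern, with a wide gap between tissues by Tag-seq and a narrow one by RNA-seq. Tnni2 (fast troponin I, chromosome 1, 215609036 to 215611658) had 260 Tag-seq counts in VMP and 4169 in SU, the widest gap of the 9 genes in that assay, with a log2 ratio of 4.05 (3.87 to 4.24). By RNA-seq it had 19 and 42 counts and a log2 ratio of 0.67 (-0.13 to 1.54). On GRCr8 the Tnni2 gene model overlaps 5 other genes, Ctsd among them. The counts were made on Rnor_6.0, where overlaps were not checked, so any effect on its reads is not known. Tnnc2 (fast troponin C, chromosome 3, 161243587 to 161246351) had 4835 and 25945 Tag-seq counts, a log2 ratio of 2.47 (2.43 to 2.52), and 76 and 122 RNA-seq counts, a log2 ratio of 0.22 (-0.21 to 0.65). For both genes the RNA-seq interval included 0, so at that depth the libraries were not told apart.

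The fast light chains, which sit on the neck of the myosin head, were higher in SU in both assays. Mylpf (chromosome 1, 198655742 to 198658583) had 105 and 649 Tag-seq counts in VMP and SU, with a log2 ratio of 2.67 (2.38 to 2.99), and 20 and 87 RNA-seq counts, with a log2 ratio of 1.64 (0.94 to 2.44). Myl1 (chromosome 9, 73937823 to 73958480) had 1021 and 5180 Tag-seq counts, with a log2 ratio of 2.39 (2.30 to 2.49). Its RNA-seq counts were 1 and 77, and the log2 ratio of 5.30 has a counting interval of 3.28 to 11.12 because VMP held a single read.

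Acta1, the actin of the skeletal fibre, and Ckm, the creatine kinase that restores its ATP, had few Tag-seq counts. Acta1 (chromosome 19, 56674074 to 56677084) had 67 Tag-seq counts in VMP and 392 in SU, a log2 ratio of 2.59 (2.22 to 2.99). By RNA-seq it had 67 and 97 counts, a log2 ratio of 0.07 (-0.39 to 0.54), so the libraries were not told apart. Acta1 has sequence similar to other actins, and Myh3 to other myosin heavy chains, which could divide or remove reads that match more than 1 gene. How far this affected their counts was not tested. Ckm (chromosome 1, 80321585 to 80331841) had 21 and 160 Tag-seq counts, a log2 ratio of 2.95 (2.32 to 3.71). By RNA-seq it had 0 and 56 counts, which made SU at least 13.5-fold higher, against a floor of 3 counts in the VMP library.

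**Figure D1:**
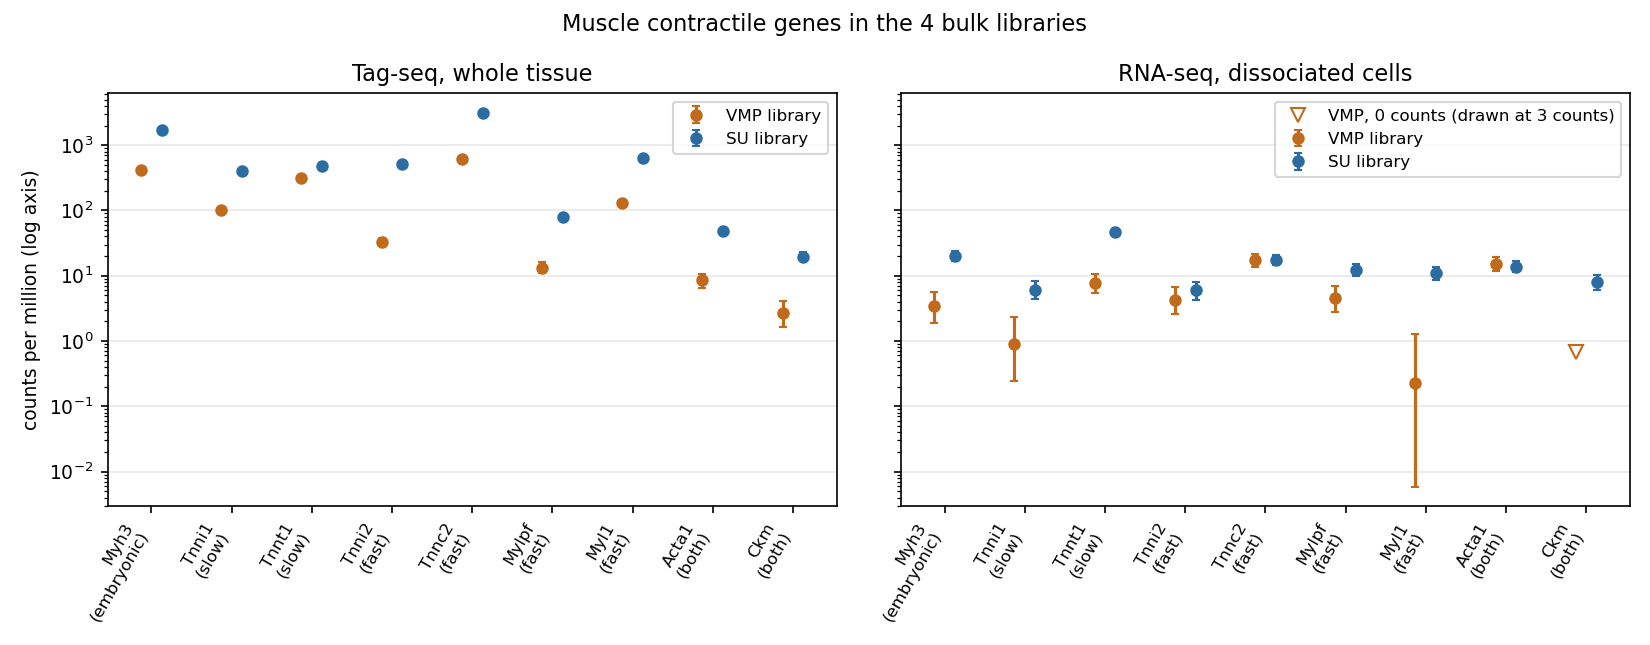
CPM of the 9 genes on a log axis in the Tag-seq libraries (left) and the RNA-seq libraries (right), VMP in orange and SU in blue, with 95% Poisson intervals and the fibre class in parentheses. By Tag-seq the SU point lies above the VMP point for all 9 genes, and by RNA-seq the points of Tnnc2 (17.3 and 17.4 CPM) and Acta1 (15.2 and 13.8 CPM) lie side by side.

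Calls were made with the NOISeq scheme, which sets a gene's difference against differences between libraries simulated within a tissue and calls it at a q of at least 0.9. By Tag-seq 8 of the 9 genes were called higher in SU, against 12.9% of the 12203 genes tested, and Tnnt1 was not (q = 0.78). By RNA-seq 6 of 9 were called higher in SU, against 10.3% of 17733, and Tnni2 (q = 0.61), Tnnc2 (q = 0.37) and Acta1 (q = 0.12) were not. No member was called higher in VMP in either assay. All 9 passed the filter of 1 CPM in at least 1 library of each assay. The median log2 ratio over the 9 genes was 2.47 by Tag-seq, beside 0.02 over all genes tested, and 2.72 by RNA-seq, beside -0.02, also with Ckm at its bound. The symbols came from the study's table of differential transcripts, so these genes had already been picked from the same libraries and the counts are not independent evidence.

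A joint fit of the 4 bulk libraries, in which assay was a covariate, asked which genes differed between the tissues beyond the disagreement of the 2 assays. With edgeR's quasi-likelihood test, 3 of the 9 genes were higher in SU at a Benjamini-Hochberg adjusted p under 0.05, against 1.30% of 14711 genes tested. They were Myl1 (log2 ratio 3.32, adjusted p = 0.0035), Tnni1 (2.41, adjusted p = 0.031) and Myh3 (2.43, adjusted p = 0.044). Each was higher in SU in both assays. The others had edgeR adjusted p of 0.070 (Tnni2), 0.090 (Ckm), 0.13 (Mylpf), 0.26 (Tnnt1), 0.74 (Tnnc2) and 0.84 (Acta1), with log2 ratios between 1.35 and 4.19. DESeq2 called the same 3 genes, with standard errors of 0.51 (Myh3), 0.64 (Tnni1) and 0.83 (Myl1) on the log2 scale. The genes had been picked from these same libraries, so the fit is not independent evidence either.

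Among the Tag-seq counts of the 9 genes together, Tnnc2 took 37.6% in VMP and 45% in SU and Myh3 took 25.2% and 24.1%. Tag-seq counts 1 tag per transcript, so they do not grow with transcript length. In SU the level in Tag-seq CPM fell in the order Tnnc2 (3158), Myh3 (1689), Myl1 (631), Tnni2 (507), Tnnt1 (476), Tnni1 (403), Mylpf (79), Acta1 (47.7) and Ckm (19.5), and no neighbours' Poisson intervals overlapped. In VMP the order began with Tnnc2 (614 CPM), Myh3 (412) and Tnnt1 (317), with Tnni2 at 33. By RNA-seq, per kilobase of transcript, SU was led by Tnnt1 (48.5 CPM per kb), with Tnnc2 at 23.2, Mylpf at 17 and Myh3 last at 3.31. The embryonic myosin ranked second in SU by tag and also by RNA-seq CPM (20, after Tnnt1 at 46.8). It was the lowest of the 9 only per kilobase, where its long transcript (6.035 kb) divides its counts. Whether reads cover the transcripts evenly was not tested.

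Troponin I exists in a slow and a fast form, and the balance of the 2 within a library needs no scaling between libraries. By Tag-seq, fast Tnni2 made up 24.3% of the Tnni1 and Tnni2 counts in VMP (Clopper-Pearson 95% interval 21.8 to 27, 1070 counts) and 55.7% in SU (54.6 to 56.8, 7483 counts). By RNA-seq the share was 82.6% in VMP (61.2 to 95, 23 counts) and 49.4% in SU (38.4 to 60.5, 85 counts). The order of the tissues thus turned between the assays. In the summed single cells the share was 100% in VMP, from 238 reads of Tnni2 and none of Tnni1. In SU it was 2.09% (1.22 to 3.32, 815 reads). Of the 238 VMP reads, 218 came from 1 of the 3 cells with Tnni2. Of the 798 SU reads of Tnni1, 387 and 203 came from the 2 highest of 10 cells. The interval takes reads as separate draws, so these shares describe a few cells and not the tissues.

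The summed level of the 9 genes was higher in whole tissue than in dissociated cells, though not for every gene. Their counts summed to 1634 CPM in VMP and 7011 in SU by Tag-seq, to 53.7 and 142 CPM by RNA-seq, and to 160 and 99.7 CPM over the single cells. The Tag-seq level was thus 30.4-fold (VMP) and 49.5-fold (SU) the RNA-seq level. For the 5 fibroblast markers the same ratio was 2.09 in VMP and 0.46 in SU. For the 9 epithelial markers it was 74.9 and 42.3. Other muscle lists, described below, had lower ratios than the 9 genes. The ratio was 4.34 in VMP and 9.84 in SU for 29 other skeletal muscle genes, and 3.36 and 1.21 for 8 myogenic genes. In SU the ratio ran from 2.44 for Ckm, 3.45 for Acta1 and 6.36 for Mylpf to 84.7 for Tnni2 and 181 for Tnnc2. In VMP it ran from 0.56 for Acta1, which was lower in whole tissue (8.51 CPM) than in dissociated cells (15.2 CPM), and 2.93 for Mylpf to 121 for Myh3 and, from a single RNA-seq read, 570 for Myl1. Ckm, with no RNA-seq read in VMP, had no ratio there. Dissociation, the separation of epithelia from the dissociated cells, and library chemistry differed together and cannot be told apart.

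Other genes of the striated muscle fibre were mostly higher in SU. The list held 62 genes, of which 29 could be matched to an identifier through the same table of differential transcripts, so its counts too are not independent evidence. By Tag-seq 22 of the 26 tested were called higher in SU and 0 higher in VMP, against 12.9% and 8.70% of all genes, with a median log2 ratio of 2.35. By RNA-seq 11 of 27 were called higher in SU and 5 higher in VMP, against 10.3% and 9.18%, with a median log2 ratio of 2.07, or 1.72 with genes at 0 set to their bound. In the 4-library fit, edgeR called 7 of 26 higher in SU, against 1.30% of all genes.

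Myl4, the light chain of atrial and embryonic muscle, had 1612 Tag-seq counts in VMP and 11930 in SU, and 13 and 43 by RNA-seq. Myl3, the slow and ventricular light chain, had 150 and 1825 Tag-seq counts, and 0 and 4 by RNA-seq. Both were higher in SU by Tag-seq, as the fast light chains were. Casq2, which stores calcium in the sarcoplasmic reticulum, had 155 and 2079 Tag-seq counts and 10 and 60 RNA-seq counts. Cav3, the caveolin of muscle membranes, had 65 and 1184 Tag-seq counts and 0 and 53 RNA-seq counts. Srl, of the sarcoplasmic reticulum, had 446 and 2975 and then 0 and 184. All 3 were called higher in SU in both assays and by edgeR (adjusted p = 0.0046, 0.00020 and 0.00058).

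Not all genes of the list followed, and the exceptions were not only cardiac and slow counterparts. Actc1, the actin of heart and of forming skeletal fibres, had 108 and 371 Tag-seq counts in VMP and SU, and 13 and 847 RNA-seq counts, with log2 ratios of 1.83 and 5.52 and an edgeR adjusted p of 0.0052. Tnnc1, the troponin C of slow and cardiac muscle, had 4201 and 3332 Tag-seq counts and 552 and 183 RNA-seq counts, and was called higher in VMP by RNA-seq (log2 ratio -2.05) but not called by Tag-seq (-0.28). Of the 2 forms of troponin C, only Tnnc2 was called higher in SU, and only by Tag-seq. Myh7, the slow and cardiac myosin, had 5 and 39 Tag-seq counts but 51 and 2 RNA-seq counts, so that it was called in opposite directions. Lmod3, a regulator of thin filament length, had 110 and 126 Tag-seq counts and 225 and 33 RNA-seq counts. It was called higher in VMP by RNA-seq and not called by Tag-seq. Mybpc2 (28 and 3 RNA-seq counts) and Myh6 (61 and 1) were also called higher in VMP by RNA-seq. Each had 0 and 3 Tag-seq counts and was not tested there.

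**Figure D2:**
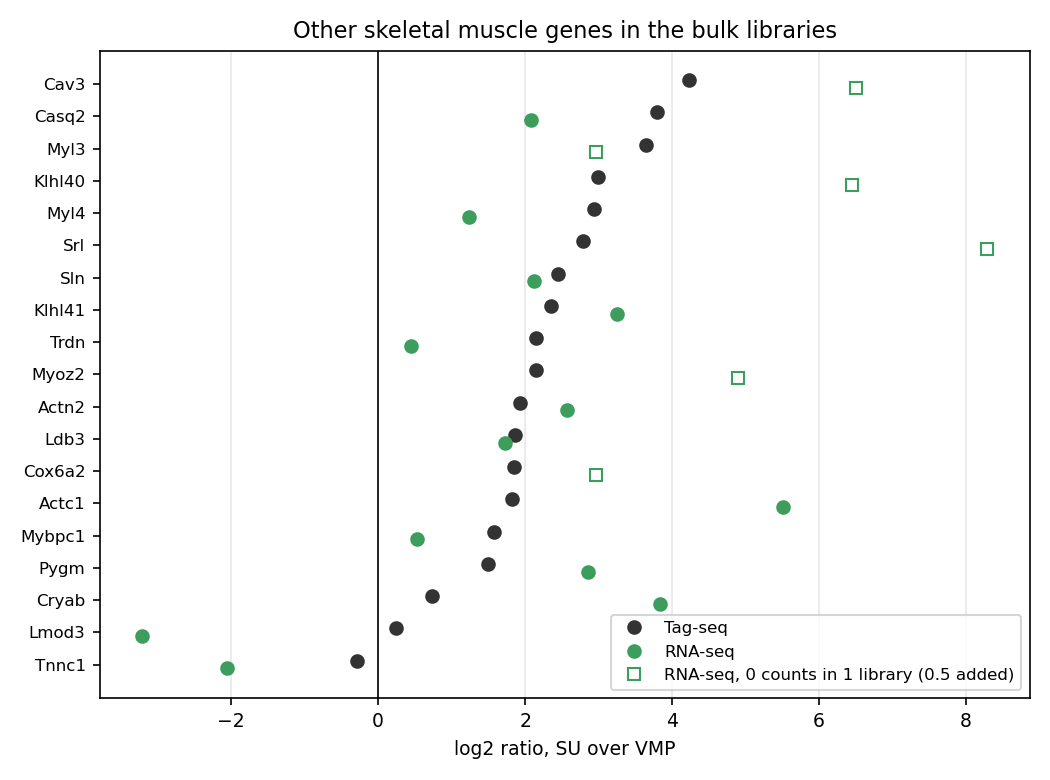
Log2 ratio of SU over VMP by Tag-seq (black) and RNA-seq (green) for the 19 matched genes of the wider muscle list with at least 100 counts in a bulk library, ordered by the Tag-seq value. Tnnc1 and Lmod3 are the genes with a negative RNA-seq value, and open squares mark RNA-seq ratios with 1 library at 0, whose size depends on the 0.5 counts added.

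The genes that direct the muscle lineage were also read. Of 8 matched myogenic regulators and receptor genes, 5 of 7 tested were called higher in SU by Tag-seq and 7 of 7 by RNA-seq, against 12.9% and 10.3% of all genes. EdgeR called 4 of 8 higher in SU, against 1.30%. These symbols too came from the table of differential transcripts, so the counts are not independent evidence. Myog, which drives fusion into fibres, had 484 and 1487 Tag-seq counts in VMP and SU and 20 and 1172 RNA-seq counts. Myod1, which commits cells to the lineage, had 77 and 421, then 0 and 68. Myf5, active in muscle precursors, had 100 and 108 Tag-seq counts and 0 and 260 RNA-seq counts, so its tag counts were similar while all its bulk RNA-seq reads were from SU.

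**Figure D3:**
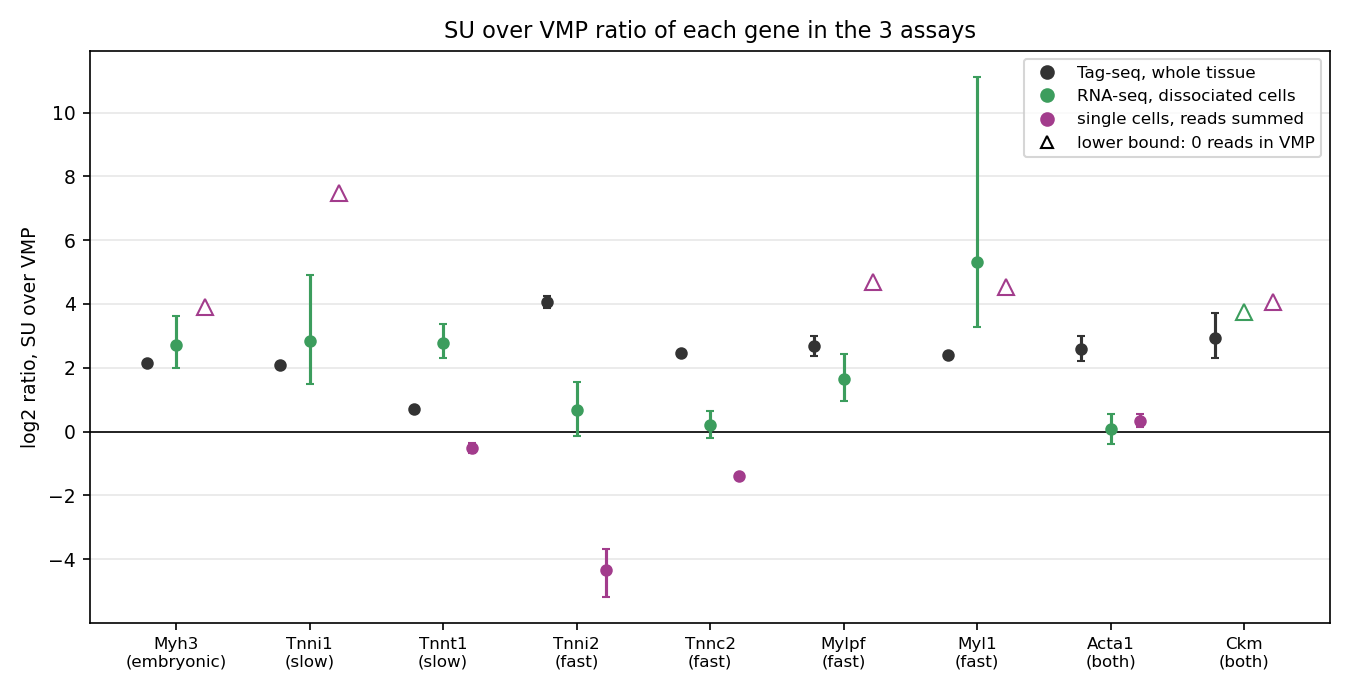
Log2 ratio of SU over VMP for each of the 9 genes by Tag-seq (black), RNA-seq (green) and single cells with reads summed per tissue (purple), with 95% counting intervals. Open triangles are lower bounds where VMP had 0 reads, and the purple points of Tnnt1, Tnni2 and Tnnc2 lie below 0 while their black points lie above it.

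In the single cells, 5 of the 9 genes had no read in any of the 49 VMP cells. These were Myh3, Tnni1, Mylpf, Myl1 and Ckm, and 0 of 49 cells allows a share of up to 6.12%, taken as 3 cells of 49, or 7.25% as the Clopper-Pearson upper limit. In SU all 9 genes had reads, in 2 (Ckm) to 20 (Tnnc2) of the 66 cells. The libraries carried no molecular identifiers, so reads are not molecules.

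Myh3 had reads in 9 SU cells, 13.6% of them (Clopper-Pearson 95% interval 6.43 to 24.3), with 66 reads in all and 30 in the cell with the most. Against the floor of 3 reads over the VMP cells, the SU sum was at least 14.8-fold higher. Tnni1 had reads in 10 SU cells, with 798 in all, of which 387 and 203 came from the 2 highest cells, and was at least 179-fold higher. Mylpf had reads in 12 SU cells (115 reads, 79 in 1 cell), Myl1 in 9 (102 reads, 61 in 1 cell) and Ckm in 2 (59 and 16 reads), which made SU at least 25.8-fold, 22.9-fold and 16.9-fold higher. In each of these genes 1 cell held between 45.5% and 78.7% of the reads. Without SU cell 18, the highest for both, the bounds of Myh3 and Mylpf were each 8.22-fold. Without the highest cell of each of the other genes, the bounds were 93.3-fold for Tnni1 (SU cell 11), 9.33-fold for Myl1 (SU cell 90) and 3.70-fold for Ckm (SU cell 80).

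Tnnc2 was the member with reads in the most cells of either tissue. It had reads in 16 of 49 VMP cells (32.7%, 19.9 to 47.5) and in 20 of 66 SU cells (30.3%, 19.6 to 42.9), intervals that overlap. Its reads summed to 3604 in VMP and 2015 in SU, with 1130 and 1076 in the highest cell. Relative to all reads the SU sum was lower, with a log2 ratio of -1.41 (-1.49 to -1.33), or -1.98 without the highest cell of each tissue (VMP cell 44 and SU cell 87), whereas by Tag-seq SU was the higher tissue. In VMP, 15 of the 16 cells with Tnnc2 reads had no read of any other member, and in SU 15 of 20 cells had reads of at least 1 other.

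Tnni2, Tnnt1 and Acta1 were each carried by a few cells. Tnni2 had 238 reads in 3 VMP cells (218 in 1 of them) and 17 reads in 4 SU cells (14 in 1 of them). Tnnt1 had 647 reads in 5 VMP cells (580 in 1 of them) and 674 reads in 10 SU cells (423 in 1 of them). Acta1 had 289 reads in a single VMP cell and 545 reads in 8 SU cells (413 in 1 of them). The log2 ratios of the sums were -4.33 for Tnni2, -0.51 for Tnnt1 and 0.35 for Acta1, and each sum rests mostly on its highest cell. Without the highest cell of the gene in each tissue, Tnnt1 had 67 and 251 reads in VMP and SU (log2 ratio 1.30, the opposite direction), Tnni2 had 20 and 3 (-3.09), and Acta1 had 0 and 132, at least 29.6-fold higher in SU.

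**Figure D4:**
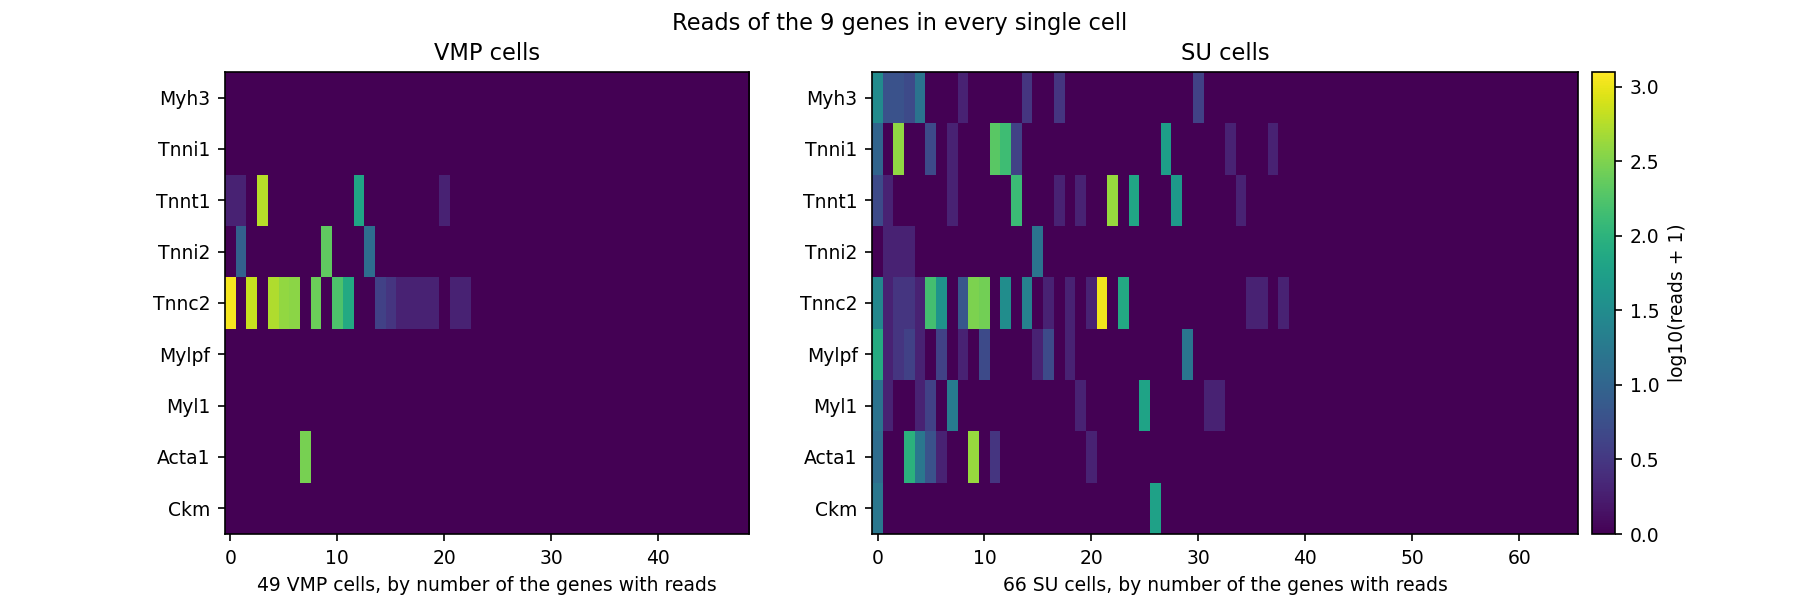
Reads of the 9 genes, as log10(reads + 1), in each of the 49 VMP cells (left) and 66 SU cells (right), with cells ordered by how many of the genes have reads. In VMP most coloured cells are Tnnc2 alone, and in SU the cells at the left edge carry several genes at once.

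Cells with reads of several members occurred in SU. At least 3 of the 9 genes had reads in 9 of 66 SU cells (13.6%, 6.43 to 24.3) and in 0 of 49 VMP cells (Clopper-Pearson upper limit 7.25%). When each cell was thinned to 199849 reads, the depth of the shallowest, the count was 6 of 66 SU cells (9.09%) and 0 of 49 VMP cells. When 5 reads of a gene were required, 1 SU cell remained. At least 1 gene had reads in 39 SU cells (59.1%, 46.3 to 71.0) and in 23 VMP cells (46.9%, 32.5 to 61.7).

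The cell that remained was SU cell 18, singled out after its values were seen. It had reads of 8 of the 9 genes, namely 79 of Mylpf, 30 of Myh3, 27 of Tnnc2, 16 of Ckm, 14 of Myl1, 12 of Acta1, 9 of Tnni1 and 4 of Tnnt1, and none of Tnni2. Embryonic, slow and fast genes were thus read in 1 cell. It also had reads of 13 of the 29 other muscle genes, 208 of them from Actc1. Of the 8 myogenic genes 6 had reads, with 21 from Myod1, 14 from Myf5, 9 from Pax3 and 0 from Myog. SU cells with under 3 members had reads of up to 5 of these 8 genes, with a median of 2. Among the 6 were Chrna1, with reads in 57 SU and 47 VMP cells, and Mef2c, with reads in 39 and 22. It had 10057 genes detected, the most of any cell (median of SU cells 6183), from 691550 counts.

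The same cell had fibroblast transcripts. The 5 fibroblast markers summed to 32051 CPM in SU cell 18, beside a median of 29828 over all SU cells, with 11207 reads from Col3a1 and 7087 from Col1a1. In the 9 SU cells with 3 or more members the sum ran from 13611 to 51578 CPM, and all 5 markers had reads in each. Whether a capture site held more than 1 cell was not tested. The 9 cells had reads of a median of 6 other muscle genes (2 to 13), and the other SU cells of 3 (0 to 6), with a median of 7091 and 6145 genes detected.

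**Figure D5:**
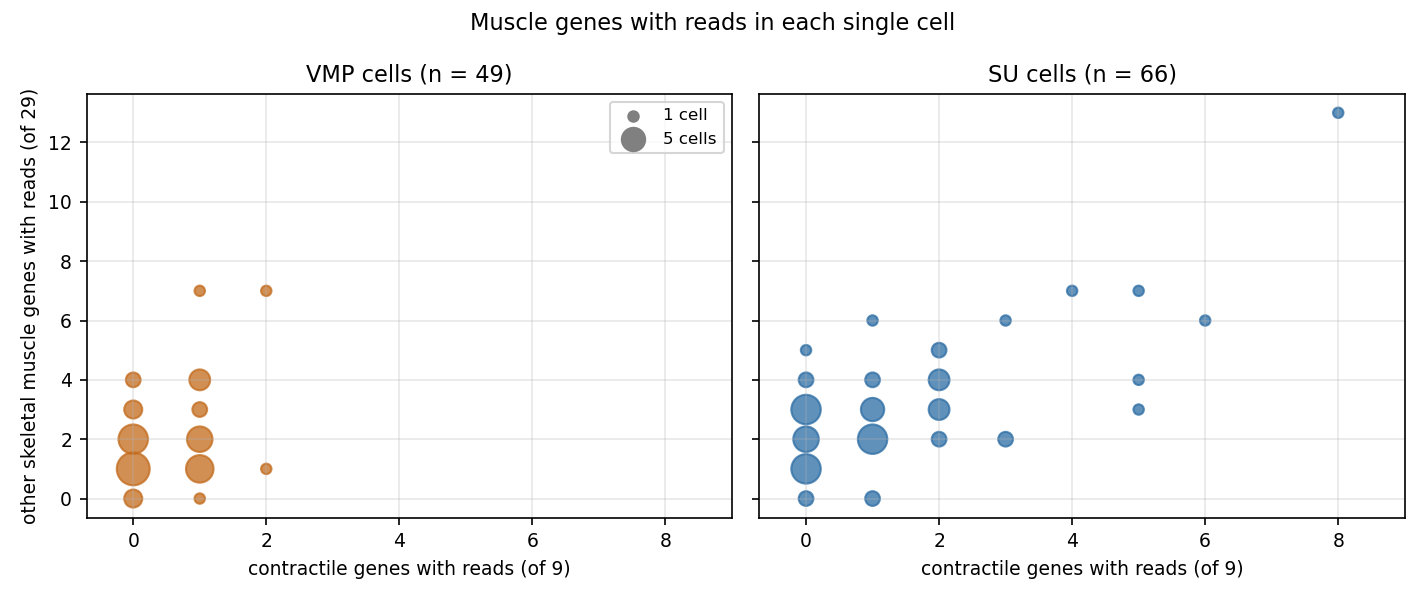
Number of the 9 contractile genes with reads against the number of the 29 other muscle genes with reads in each VMP cell (left) and SU cell (right), with the area of a point giving the number of cells. VMP cells reach 2 of the 9 genes, and SU cell 18 stands apart at 8 contractile and 13 other muscle genes.

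Counterparts of the members were read in single cells as well. Tnnc1 had reads in 38 of 49 VMP cells (6461 reads) and in 19 of 66 SU cells (1363 reads). Actc1 had reads in 2 VMP cells (40 reads) and in 33 SU cells (2956 reads), more SU cells than any of the 9 genes. Myf5 had reads in 1 VMP cell and 24 SU cells, and Myod1 in 8 and 18. Myog had 1 read in 1 VMP cell and 41 reads in 9 SU cells, although it was the most abundant of the 8 myogenic genes in SU RNA-seq.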

How the data were processed

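Raw read counts for each Ensembl gene were deposited by the authors for all 3 assays, with no normalization. Tag-seq reads had been cut down to the tag and mapped with Bowtie2 on Rnor_6.0, and only unique alignments outside the mitochondrial genome were counted. The single-cell reads were trimmed with Trimmomatic 0.33, aligned with TopHat, and amplification duplicates were removed with Picard 1.128. The alignment of the bulk RNA-seq libraries is not described apart. Short tags and the removal of non-unique reads can lower near-identical genes. The 95 spike-in rows were left out of library sizes.

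Calls followed the NOISeq scheme for unreplicated libraries, rewritten in Python 3.11.15 with numpy 2.4.6, pandas 2.3.3 and scipy 1.17.1, with TMM scaling, CPM above 1 in a library, 5 simulated libraries at 20% of the depth, a variability of 0.02 and q of at least 0.9. Log2 ratios had 0.5 counts added. Intervals are at 95% and cover counting error only, and a fold against 0 used 3 counts. The 4 bulk libraries were fitted in R 4.3.3, with the assay as a covariate, by edgeR 4.0.16 or by DESeq2 1.42.0, and p-values were adjusted over all genes. The scripts were tested on simulated counts. Cells were summed per tissue, all deposited cells were used, doublets were not called, and figures were drawn with matplotlib 3.10.9. The paper reports fewer SU cells sequenced than were deposited, and fewer still kept after its quality control. The deposited SU cells thus include some outside its filtered set, while the deposited VMP cells equal in number those it kept.

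Symbols, Rnor_6.0 coordinates and transcript lengths came from the study's table of differential transcripts, which pairs 2995 identifiers with symbols in the part used here. List genes not in it, such as Myh8 and Acta2, were not analysed here. The 9 genes and the marker lists were chosen with earlier results of these data known. The text names the 9 genes, other muscle genes with at least 100 counts in a bulk library or that are counterparts of a member, list genes discussed beside a result, and the 5 genes most like the members by Euclidean distance. The alternatives were other scaling, pseudocounts, filters and thresholds, other tools, thinning, spike-in scaling and leaving out cells.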

Additional observations from a re-analysis of the deposited data

Results flagged for a closer look

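For 3 genes the single cells and the whole tissue gave opposite directions, and the difference was not tested. The log2 ratio of SU over VMP of Tnni2 was -4.33 in the summed cells and 4.05 by Tag-seq. For Tnnc2 it was -1.41 and 2.47. For Tnnt1 it was -0.51 and 0.70. In VMP 1 cell held 91.6% of the single-cell reads of Tnni2 and 1 cell held 89.6% of those of Tnnt1, whereas the highest VMP cell held 31.4% of those of Tnnc2. Without the highest cell of the gene in each tissue, the single-cell log2 ratio was -3.09 for Tnni2, -1.98 for Tnnc2 and 1.30 for Tnnt1.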

How the results depend on the processing

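The number of members called higher in SU was 8 of 9 by Tag-seq under 5 of the 6 alternatives and 9 when 5 counts were added, and by RNA-seq it was 6 under 5 of the 6 and 5 at a q of at least 0.95. The 4-library fit called 3 members with DESeq2 and 4 with edgeR without the filter on low counts, which added Tnni2 (adjusted p = 0.031). SU cells with reads of at least 3 members went from 9 to 1 when 5 reads per gene were required. The single-cell log2 ratio of Tnnt1 turned from -0.51 to 0.092 as a mean over cells of CPM, and the cause was not tested. Without the cell with the most member reads in each tissue, that of Tnnc2 was -1.98. The alternatives in the rest of this paragraph that leave out cells were chosen after seeing the data. Without SU cell 18, 8 SU cells had at least 3 members, with the single-cell log2 ratio going from 6.77 to 5.92 for Myh3 and from 7.57 to 5.92 for Mylpf, values that depend on the 0.5 counts added. Without the cell with the most reads of the gene in each tissue, the log2 ratio of Tnnt1 was 1.30, turned in direction. A filter at 3 MADs on counts, genes and spike-ins left 64 SU cells, 8 of them with at least 3 members, and 47 VMP cells with none. No paired analysis was possible because the labels tie no shared cell number to a shared animal or pool. The fit of the 4 bulk libraries compares the tissues within each assay, so it pairs by assay and not by a replicate number. The RNA-seq intervals rest on 0 to 76 VMP counts per gene.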

Other observations

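The SU cells with Myh3 reads were not spread evenly over the cell numbers, which was noticed in the data. Of the 12 SU cells with a number up to 18, 7 had Myh3 reads, and of the other 54 SU cells 2 had. At least 3 members had reads in 6 of the 12 and in 3 of the 54. The labels do not say what the number stands for, and no cause was tested.

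Of 7288 genes outside the lists with at least 50 counts in both bulk assays, the 5 whose pattern over the 4 bulk libraries and the 2 cell sums lay nearest to the mean of the members were Itpr3 (distance 1.29 on the centred log2(CPM + 1) scale), Src (1.35), Itm2b (1.49), a gene with no symbol in the table (ENSRNOG00000006934, 1.51) and Ifngr2 (1.54). The members themselves lay farther from their own mean, between 1.67 (Tnnt1) and 4.58 (Acta1). The 5 genes were picked as the nearest of 7288 and the members were not picked by distance. The comparison therefore does not show that the 5 genes are more like the set than its members. Itpr3 had 286 and 1419 Tag-seq counts in VMP and SU and 21 and 63 RNA-seq counts.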
